A study of Mus musculus with 8 samples.

Results

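Imprinted genes, which are transcribed mainly from the chromosome of 1 parent, were followed in mouse gonads at embryonic day 11.5 with and without Kdm6b. The set was a list of 42 imprinted genes matched by name, and a gene was kept where its mean normalized count reached 10 in either sex. That left 40 of the 42 genes, out of 48440 genes listed: 21 paternally expressed, 18 maternally expressed, and Gnas, whose parental origin differs by transcript. Ascl2, with a mean of 1.75 normalized counts in XY and 1.50 in XX, and Rasgrf1, with 1.50 and 1.51, were not kept. The kept genes nearest the limit were Phlda2, with means of 20.0 and 32.5, and Slc22a18, with 20.9 and 20.8.

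The 4 groups were XY Kdm6b-null, XY wild type, XX Kdm6b-null and XX wild type gonads, each with 2 libraries of messenger RNA, and each library pooled 2 pairs of gonads. Embryos were untreated, and the labels give neither the deleted part of Kdm6b nor whether pools came from separate litters, so p-values measure the spread between these pools. The labels name pre-Sertoli cells for XY and pre-granulosa cells for XX, but describe no sorting, and the samples are treated as whole gonads. The study's title places KDM6B at the top of male sex determination, and the comparison here asks how the imprinted genes differ between Kdm6b-null and wild type gonads of each sex.

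In genomic imprinting, DNA methylation set in the egg or the sperm marks a control region, and the mark makes the maternal and paternal copies of nearby genes behave differently. Imprinted genes lie in clusters that often hold a long noncoding RNA and protein-coding genes of opposite parental expression, and many act on the growth of the embryo and placenta. Some are imprinted in certain tissues only, such as Ube3a in neurons and Dcn in the placenta. In the gonad, imprints are erased in the germ cells and kept in the somatic cells. KDM6B removes methyl groups from lysine 27 of histone H3, a repressive mark laid down by Polycomb. The counts add both parental copies together, so they show the level of a gene and not which copy was read.

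The promoter windows of 4 genes from 2 imprinted clusters are shown, picked from those with large positive XX differences described further on. Peg10 had no window, and those of Phlda2, Nap1l5, Slc22a18 and Asb4, whose XX differences were also large, are not shown. Each window runs from 250 bases before to 50 bases after a transcription start in RefSeq (GRCm38.p6), is written 5′ to 3′ on the gene's own strand, and has its CpG dinucleotides, the sites of DNA methylation, in capitals. Peg3 lies at chr7:6730370-6730669 on the minus strand, Usp29 at chr7:6730333-6730632 on the plus strand, Zim1 at chr7:6696383-6696682 on the minus strand and Igf2r at chr17:12769657-12769956 on the minus strand.
Peg3: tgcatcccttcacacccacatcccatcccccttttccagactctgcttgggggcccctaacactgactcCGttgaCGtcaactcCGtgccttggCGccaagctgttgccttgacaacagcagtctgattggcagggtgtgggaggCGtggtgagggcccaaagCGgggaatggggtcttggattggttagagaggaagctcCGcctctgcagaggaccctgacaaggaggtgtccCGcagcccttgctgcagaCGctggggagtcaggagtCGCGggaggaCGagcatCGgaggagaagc
Usp29: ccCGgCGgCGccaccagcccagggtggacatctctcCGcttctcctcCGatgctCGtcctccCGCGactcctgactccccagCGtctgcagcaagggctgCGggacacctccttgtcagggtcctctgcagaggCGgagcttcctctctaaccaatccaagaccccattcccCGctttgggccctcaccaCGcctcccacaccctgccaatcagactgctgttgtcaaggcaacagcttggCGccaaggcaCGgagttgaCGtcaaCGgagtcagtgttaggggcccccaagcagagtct
Zim1: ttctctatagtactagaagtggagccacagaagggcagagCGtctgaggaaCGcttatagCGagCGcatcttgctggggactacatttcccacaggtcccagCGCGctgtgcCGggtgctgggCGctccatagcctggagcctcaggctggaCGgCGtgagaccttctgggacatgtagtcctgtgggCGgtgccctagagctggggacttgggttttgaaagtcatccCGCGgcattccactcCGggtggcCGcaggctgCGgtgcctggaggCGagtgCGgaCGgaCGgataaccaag
Igf2r: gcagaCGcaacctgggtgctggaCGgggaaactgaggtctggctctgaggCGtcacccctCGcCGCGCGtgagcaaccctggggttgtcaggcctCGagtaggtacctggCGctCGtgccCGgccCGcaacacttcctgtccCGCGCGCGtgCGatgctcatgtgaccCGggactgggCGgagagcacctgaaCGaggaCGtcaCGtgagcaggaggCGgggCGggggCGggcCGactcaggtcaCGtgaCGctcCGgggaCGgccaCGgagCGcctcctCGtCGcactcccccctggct

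The Peg3 and Usp29 windows read the same stretch on opposite strands over 263 bases, since these genes are transcribed away from each other. Peg3 has 13 CpG dinucleotides in its window, Usp29 has 17, Zim1 has 20 and Igf2r has 34, against a median of 7 and an upper quartile of 20 over 32851 promoter windows. The hexamer TGCCGC, bound by the imprint-protecting zinc finger protein ZFP57, was searched on both strands. It occurs 1 time in the Zim1 window and in none of the other 3 windows, and 11.6% of all windows hold it. Of the windows named above but not shown, that of Nap1l5 holds it 2 times, and those of Phlda2, Slc22a18 and Asb4 do not hold it. Of the 42 listed genes, 32 had a window that was used, with 47 windows in all, and 11 of the 47 hold the hexamer, in 10 genes. Windows on chromosome 18, where Impact lies, were left out of this count. The core GCCATNTT of the factor YY1, which binds the Peg3 control region, occurs in none of the 4 windows shown and in 6.05% of all windows.

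Each library held 19107103 to 19828638 counts, and a value of 0 leaves room for up to 3 counts (2.91 to 3.09 normalized counts, counting error only). Kdm6b itself had 1238 and 1037 normalized counts in XY Kdm6b-null gonads, against 3399 and 3181 in XY wild type gonads, and 1249 and 1125 in XX Kdm6b-null gonads, against 2218 and 2796 in XX wild type gonads. All 8 gonad somatic markers, among them Wt1, Gata4 and Nr5a1, were detected in every library. XX wild type replicate 1 stood apart from the others. The summed level of 10 liver and yolk sac markers was 15298 normalized counts in it, of which Afp gave 11142, against 446.1 in XX wild type replicate 2 and 48.4 to 246.8 in the other 6 libraries. Every gene is therefore also plotted for XX without that library, and its value without it is given for the genes the results turn on.

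Together the 40 genes took 1.92 and 2.03% of the normalized counts in XY Kdm6b-null gonads, 1.82 and 2.04% in XY wild type, 1.96 and 2.10% in XX Kdm6b-null and 1.74 and 1.72% in XX wild type gonads. The growth-linked noncoding RNA H19 alone gave 0.552 to 0.654% of a library. Per kilobase of exon in XY wild type gonads, H19 averaged 47914 normalized counts and stood far above Peg3 at 5599, Mest at 5241, Cdkn1c at 4307, Grb10 at 3638 and Peg10 at 3031. At the low end were Slc22a18 at 14.0, Kcnq1 at 12.1 and the noncoding RNA Kcnq1ot1 at 10.5. The exon length used for Kcnq1ot1, 93.09 kilobases, is longer than the span the deposited data give it. Its level per kilobase and its place in this order are therefore uncertain. The median level per kilobase of the 18 maternally expressed genes was 496 in XY Kdm6b-null and 479 in XY wild type gonads, and 525 in XX Kdm6b-null and 509 in XX wild type gonads. For the 21 paternally expressed genes it was 208, 196, 199 and 184 in the same groups. The XY and XX tables were normalized separately, so small gaps in level between the sexes cannot be read.

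**Figure D1:**
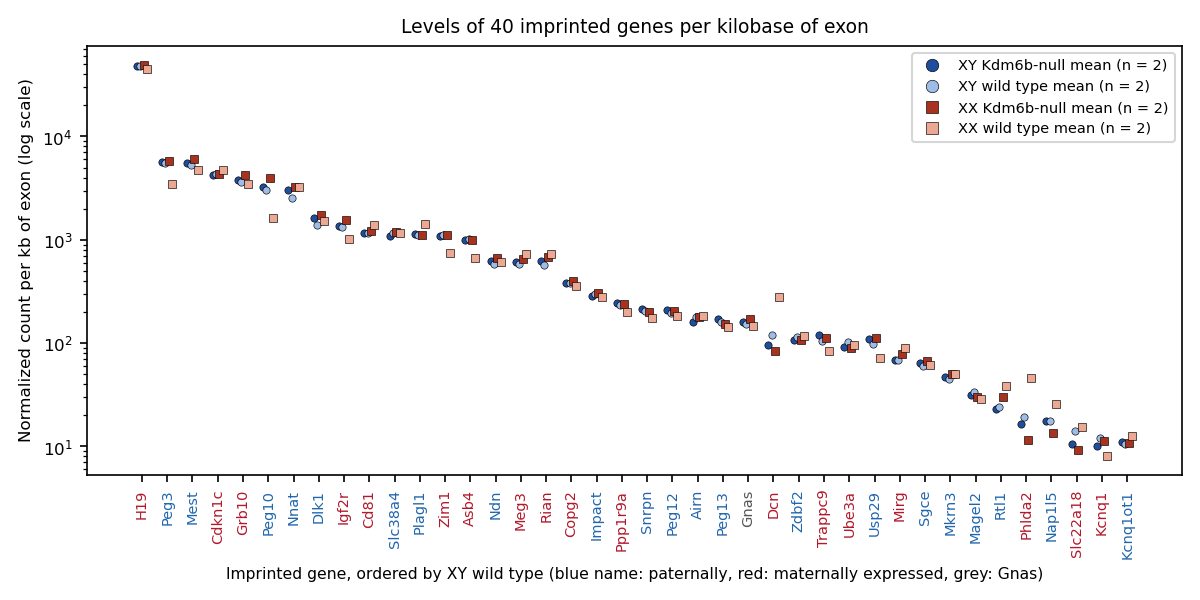
Mean normalized count per kilobase of exon (log axis) of each of the 40 imprinted genes in XY Kdm6b-null, XY wild type, XX Kdm6b-null and XX wild type gonads (n = 2 each), ordered by XY wild type. Levels run from 47914 for H19 to 10.5 for Kcnq1ot1, whose exon length is uncertain, in XY wild type. For most genes the 4 means lie close together, with Peg10, Dcn and Phlda2 among those whose XX wild type mean stands off.

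In XY gonads the imprinted genes differed little between genotypes. Their log2 fold changes, Kdm6b-null over wild type on log2(normalized count + 1), ran from -0.37 for Slc22a18 to 0.25 for Nnat, and the median size of the change was 0.077 for the 40 genes, against 0.106 for all genes tested. None of the 40 passed limma's test with Benjamini-Hochberg adjustment at 0.05, nor did any of the 16821 genes tested (0%). The authors' deposited table called 0 of the 40, against 0.402% of all genes it tested. At an unadjusted p under 0.05 there was 1 of the 40 genes (2.5%), against 4.96% (834) of all genes.

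That gene was Dcn, which encodes the matrix proteoglycan decorin. It had 562 and 553 normalized counts in XY Kdm6b-null gonads, against 758 and 650.0 in XY wild type gonads. The groups did not overlap, and the log2 fold change of -0.33 (SE 0.11, n = 2 each) had an adjusted p of 0.91 in limma. Groups did not overlap for 2 genes that were higher in XY Kdm6b-null gonads, Nnat and Trappc9 (5% of the 40, against 16.6% of all genes), and for 5 that were lower, Dcn, Impact, Kcnq1, Slc22a18 and Ube3a (12.5%, against 16.3%).

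Nnat, which encodes the membrane proteolipid neuronatin, had 5826 and 5273 normalized counts in XY Kdm6b-null gonads, against 5165 and 4211 in XY wild type gonads. Its log2 fold change was 0.25 (SE 0.12, limma adjusted p = 0.999). H19 had 110556 and 128631 normalized counts in XY Kdm6b-null gonads, against 114689.6 and 121048 in XY wild type gonads. Its Kdm6b-null values lay on both sides of the wild type ones. Of the 40 genes, 24 had a positive and 16 a negative log2 fold change in XY, with a median of 0.02, against 0 for all genes. With 1 library left out that median ran from -0.045 to 0.066, so its sign rested on single libraries.

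Cell type markers also differed between the XY groups. Of 8 gonad somatic markers 7 had negative XY log2 fold changes, with a median of -0.43, and their summed level was 11897 and 16401 normalized counts in XY Kdm6b-null gonads, against 16413 and 17854 in XY wild type gonads. Endothelial markers were negative for 9 of 10, with sums of 16372 and 15209 in XY Kdm6b-null gonads, against 15682 and 20739 in XY wild type gonads. Erythroid markers were positive for 10 of 11, with sums of 70412 and 214070.3 in XY Kdm6b-null gonads, against 61437 and 105058 in XY wild type gonads. The endothelial and erythroid sums overlapped between the groups, and the gonad somatic ones nearly touched. Those of 11 macrophage markers, 9 of them positive, did not overlap, at 3145 and 3353 in XY Kdm6b-null gonads, against 2516 and 2667 in XY wild type gonads. Germ cell markers were positive for 11 of 12, with sums that overlapped. Markers of neural crest and neurons were negative for 9 of 11. Their sums of 3863 and 4037 in XY Kdm6b-null gonads did not overlap the 4093 and 4699 in XY wild type gonads. Proliferation markers were negative for 9 of 10, with a median of -0.05, and those of interstitial progenitors for 6 of 8, with a median of -0.08. No list member passed limma's test in XY, and the part of these cells in the values of the imprinted genes was not tested.

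In XX gonads the imprinted genes varied more. Peg10, Igf2r, Peg3, Asb4 and Zim1 rose in XX Kdm6b-null gonads in the authors' deposited table, 5 of the 39 genes for which it gives an adjusted p, against 1.95% of all genes higher in it. None of the 40 passed limma's test, in which 0% of 17028 genes did. At an unadjusted p under 0.05 limma had 8 genes higher and 4 lower, 30% of the 40, against 14% (2383) of all genes. Groups did not overlap for 16 of the 40 higher in Kdm6b-null gonads (40%, against 27% of all genes) and for 8 lower (20%, against 22.5%). The median size of the change was 0.203, against 0.207 for all genes. It was 0.268 for the 18 maternally and 0.191 for the 21 paternally expressed genes. By its median over the 40 genes the change was of the usual size for this comparison. The shares at the unadjusted p and of higher genes without overlap lay above those of all genes. In whole gonads, fewer cells of a type and less RNA per cell cannot be told apart.

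The steepest XX difference in the positive direction was that of Peg10, a paternally expressed gene derived from a retrotransposon and needed by the placenta. It had 24338 and 27989.8 normalized counts in XX Kdm6b-null gonads, against 8169 and 13516 in XX wild type gonads. Both Kdm6b-null values were above both wild type ones. The log2 fold change was 1.31 (SE 0.26, n = 2 each, limma adjusted p = 0.261), or 0.95 with XX wild type replicate 1 left out, where the adjusted p was 0.011. In the authors' deposited table it was 1.27 with an adjusted p of 6.86e-06. In XY gonads Peg10 had 20112 and 23224 normalized counts in Kdm6b-null libraries, against 17104 and 23308 in wild type libraries, and these groups overlapped.

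Peg10 lies on chromosome 6 at 4747306 to 4760517 (GRCm38) on the plus strand, and Sgce, a paternally expressed sarcoglycan gene, lies next to it on the other strand at 4674350 to 4747207. Sgce had 723 and 711.2 normalized counts in XX Kdm6b-null gonads, against 711.1 and 599.8 in XX wild type gonads, a log2 fold change of 0.14 (SE 0.12, limma adjusted p = 0.64). The ratio of Peg10 to Sgce normalized counts was 33.6 and 39.4 in XX Kdm6b-null gonads, against 11.5 and 22.5 in XX wild type gonads. The same ratio was 31.4 and 32.6 in XY Kdm6b-null gonads, against 28.7 and 34.1 in XY wild type gonads. So this divergent pair of genes differed unequally between genotypes in XX gonads, and in XY gonads the ratios overlapped.

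Downstream in that cluster lie maternally expressed genes. Asb4, whose protein recruits substrates to a ubiquitin ligase, had 3539 and 4366 normalized counts in XX Kdm6b-null gonads, against 2511 and 2698 in XX wild type gonads. Its groups did not overlap, with a log2 fold change of 0.60 (SE 0.13, limma adjusted p = 0.261), and of 0.54 without XX wild type replicate 1. The authors' deposited table gives 0.60, adjusted p 0.010. Ppp1r9a, which encodes the actin-binding scaffold neurabin, had 3367 and 3514 normalized counts in XX Kdm6b-null gonads, against 2978 and 2863 in XX wild type gonads. Its log2 fold change was 0.24 (SE 0.09, limma adjusted p = 0.354), or 0.27 with XX wild type replicate 1 left out. Of the 4 genes kept in this cluster, all had higher XX Kdm6b-null means, and their groups did not overlap, although those of Sgce nearly touched.

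In the Peg3 cluster, on proximal chromosome 7, the 3 listed genes lay higher in XX Kdm6b-null gonads whichever parent they are expressed from. Peg3, a paternally expressed zinc finger gene, had 73388 and 82438 normalized counts in XX Kdm6b-null gonads, against 39004 and 52757 in XX wild type gonads. Its divergent partner Usp29, also paternally expressed and a member of the ubiquitin-specific protease family, had 1932 and 2085 in XX Kdm6b-null gonads, against 1031 and 1553 in XX wild type gonads. Zim1, a maternally expressed zinc finger gene, had 7768 and 10351 in XX Kdm6b-null gonads, against 5902 and 6193 in XX wild type gonads. None of these groups overlapped in XX.

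The log2 fold change of Peg3 was 0.78 (SE 0.25, limma adjusted p = 0.308), or 0.56 with XX wild type replicate 1 left out. For Usp29 it was 0.67 (SE 0.20, limma adjusted p = 0.306), and 0.37 without that library. For Zim1 it was 0.57 (SE 0.16, limma adjusted p = 0.291), and 0.53 without that library. In the authors' deposited table the adjusted p was 0.00129 for Peg3 and 0.027 for Zim1, both past 0.05, and 0.082 for Usp29, which was not. Usp29 counts ran at 2.38 to 2.94 per 100 Peg3 counts over the 8 libraries. Zim1 counts, on the same scale, ran at 10.6 in XX Kdm6b-null replicate 1 to 15.1 in XX wild type replicate 1. The part of the shared promoter stretch in the Usp29 ratio was not tested.

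In XY gonads Peg3 had 69166 and 80742 normalized counts in Kdm6b-null libraries, against 66432 and 82777 in wild type libraries, and Zim1 had 7771 and 9963, against 7692 and 10270.1. The XY groups of both genes overlapped. The library with the higher Peg3 value of each group was also the higher one for Peg10, Usp29, Zim1 and Asb4 in all 4 groups, a pattern noticed after the values were seen. That library was replicate 2 each time, and the part of the replicate number in this order was not tested. Counting Peg3 itself, 5 of the 40 genes (12.5%) and 7.11% of all genes had this order.

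**Figure D2:**
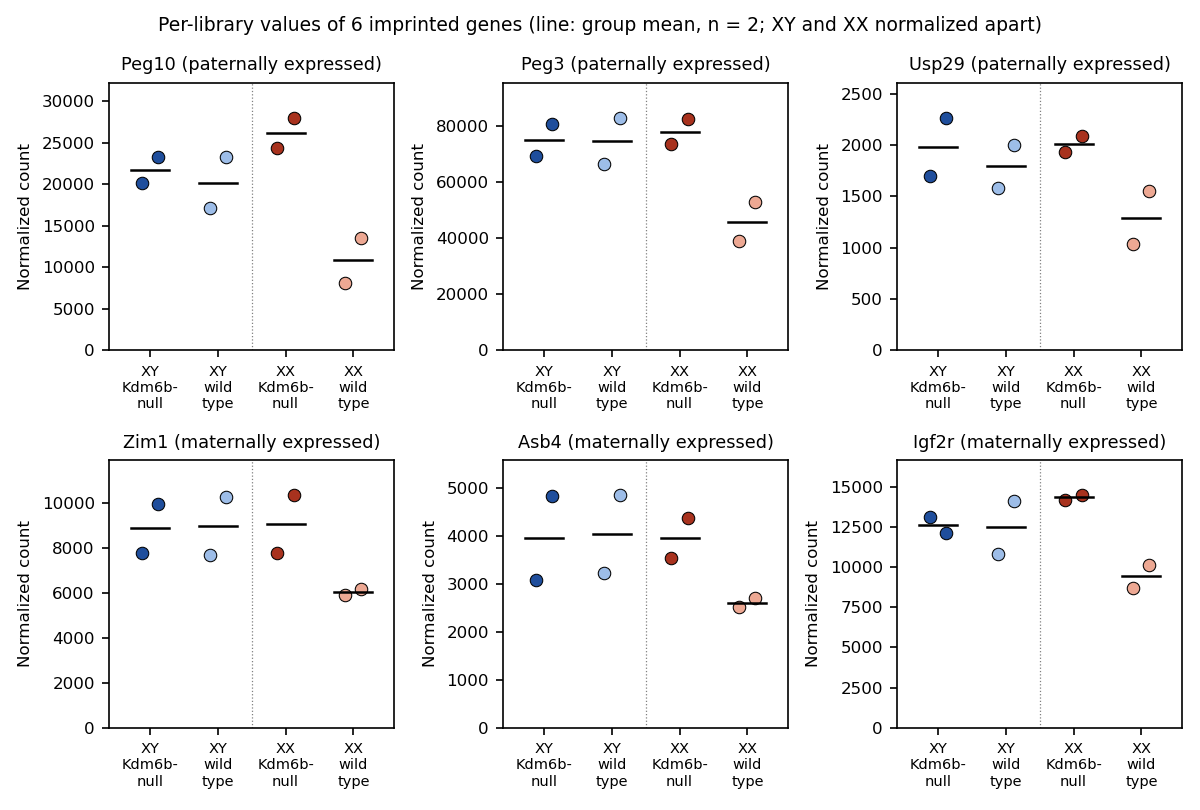
Normalized count in each library (points, n = 2 per group) and group mean (line) of Peg10, Peg3, Usp29, Zim1, Asb4 and Igf2r in XY Kdm6b-null, XY wild type, XX Kdm6b-null and XX wild type gonads. In XX, both Kdm6b-null points lie above both wild type points for every gene shown, as for Peg10 with 24338 and 27989.8 against 8169 and 13516; in XY the points overlap.

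Igf2r, on chromosome 17, encodes the receptor that removes the growth factor IGF2 from the cell surface, and is maternally expressed. It had 14205 and 14496 normalized counts in XX Kdm6b-null gonads, against 8704 and 10159 in XX wild type gonads. The groups did not overlap, with a log2 fold change of 0.61 (SE 0.13, limma adjusted p = 0.261) and in the authors' deposited table an adjusted p of 0.000921. Without XX wild type replicate 1 it was 0.50 with a limma adjusted p of 0.027. In XY gonads Igf2r had 13155 and 12107 normalized counts in Kdm6b-null libraries, within the 10797 and 14159 of wild type libraries.

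Airn, the paternally expressed noncoding RNA that starts inside Igf2r on the opposite strand and silences the paternal Igf2r copy, had 666 and 621 normalized counts in XX Kdm6b-null gonads, against 641 and 687 in XX wild type gonads. These groups overlapped, and the log2 fold change was -0.05 (SE 0.11, limma adjusted p = 0.874), or -0.10 with XX wild type replicate 1 left out. Airn counts per 100 Igf2r counts were 4.69 and 4.29 in XX Kdm6b-null gonads, against 7.37 and 6.76 in XX wild type gonads, and 5.21 and 3.89 in XY Kdm6b-null gonads, against 5.09 and 5.13 in XY wild type gonads. Whether reads were counted by strand is not given, so reads from this overlapping pair may not have been told apart.

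Trappc9, a maternally expressed gene for a subunit of the vesicle-tethering TRAPP complex, was higher in Kdm6b-null gonads without overlap in both sexes. It was the 1 gene of the 40 with this order. Of all genes, 16.6% in XY and 27% in XX were higher without overlap, and the share with both was not counted. Trappc9 had 983 and 899 normalized counts in XY Kdm6b-null gonads, against 871 and 808 in XY wild type gonads. In XX it had 881 and 897 in Kdm6b-null gonads, against 648 and 682 in wild type gonads. The log2 fold change was 0.16 (SE 0.09, limma adjusted p = 0.999) in XY and 0.42 (SE 0.10, limma adjusted p = 0.261) in XX, where it was 0.38 without replicate 1 of the wild type. Peg13, a paternally expressed noncoding RNA inside Trappc9 on the same strand, had 802 and 660 normalized counts in XX Kdm6b-null gonads, against 724 and 619 in XX wild type gonads, and these overlapped.

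Mest, a paternally expressed gene for a hydrolase-like protein, had 23587 and 23789 normalized counts in XX Kdm6b-null gonads, against 18191 and 19441 in XX wild type gonads. Mest had a log2 fold change of 0.33 (SE 0.14, limma adjusted p = 0.370), or 0.29 with XX wild type replicate 1 left out. Copg2, the maternally expressed coat protein gene that overlaps it on the opposite strand, differed by 0.16 on the same scale. Grb10, which encodes an adaptor that dampens insulin signalling, had 38341 and 39346 normalized counts in XX Kdm6b-null gonads, against 27476 and 36275 in XX wild type gonads. Its log2 fold change was 0.30, and 0.10 without XX wild type replicate 1. H19, Snrpn, Sgce, Gnas and Impact were the other genes with higher, separate XX Kdm6b-null values, with log2 fold changes of 0.13 to 0.20.

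Lower values in XX Kdm6b-null gonads were led by Phlda2, a maternally expressed gene that restrains placental growth. It had 14.0 and 12.1 normalized counts in XX Kdm6b-null gonads, against 75.7 and 28.3 in XX wild type gonads. The groups did not overlap but the counts are low, with a log2 fold change of -1.76 (SE 0.54, limma adjusted p = 0.306), and of -1.07 without XX wild type replicate 1. In XY gonads it had 16.6 and 20.6 normalized counts in Kdm6b-null libraries, between the 10.9 and 31.9 of wild type libraries.

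Dcn had 479 and 497 normalized counts in XX Kdm6b-null gonads, against 2438 and 792 in XX wild type gonads. The value of 2438 came from XX wild type replicate 1, the library with the liver and yolk sac markers, whose part in the result was not tested. With it the log2 fold change was -1.51 (SE 0.51, limma adjusted p = 0.319), and without it -0.70 (adjusted p = 0.023). As in XY, both Kdm6b-null values were below both wild type values.

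Plagl1, a paternally expressed zinc finger factor known to act on other imprinted genes, had 8807 and 8668 normalized counts in XX Kdm6b-null gonads, against 10388 and 11669 in XX wild type gonads. For Plagl1 the log2 fold change was -0.33 (SE 0.12, limma adjusted p = 0.336), and -0.42 when XX wild type replicate 1 was left out (adjusted p = 0.038). Nap1l5, a paternally expressed gene of the nucleosome assembly protein family, had 19.9 and 30.3 normalized counts in XX Kdm6b-null gonads, against 41.7 and 52.6 in XX wild type gonads, with a log2 fold change of -0.90 (SE 0.35, limma adjusted p = 0.353), and of -1.07 without that library. Neither group pair overlapped in XX. Mirg, Rtl1, Ube3a and Zdbf2 were also lower without overlap, with log2 fold changes of -0.32 to -0.11. The Rtl1 groups nearly touched, at 204.3 normalized counts in an XX Kdm6b-null library, against 205.3 in an XX wild type library. Ube3a was lower without overlap in XY as well.

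The Dlk1-Meg3 cluster on chromosome 12 holds the paternally expressed Dlk1, a Notch-related membrane protein gene, and Rtl1, a retrotransposon-derived gene, beside the maternally expressed noncoding RNAs Meg3, Rian and Mirg. Dlk1 had 9752 and 9991 normalized counts in XX Kdm6b-null gonads, against 10179.95 and 6888 in XX wild type gonads, and these overlapped. Its log2 fold change was 0.24 (SE 0.20, limma adjusted p = 0.618). It was 0.52 (adjusted p = 0.022) when XX wild type replicate 1 was left out and -0.04 when replicate 2 was, so its direction rested on which wild type library was used. Meg3 had 11184 and 12446 normalized counts in XX Kdm6b-null gonads, against 15205 and 10969 in XX wild type gonads. The log2 fold change was -0.13 for Meg3, -0.11 for Rian and -0.18 for Mirg, and 0.11, 0.05 and -0.04 for these without XX wild type replicate 1. Rtl1, which is antisense to the maternal transcripts, differed by -0.32, and by -0.10 without that library.

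On distal chromosome 7, the growth inhibitor Cdkn1c, which blocks cyclin-dependent kinases, had 8657 and 9149.8 normalized counts in XX Kdm6b-null gonads, against 11010.4 and 8247 in XX wild type gonads. Its log2 fold change was -0.10, and 0.11 without XX wild type replicate 1. Of the 7 kept genes of the H19 and Kcnq1 region, H19 and the potassium channel gene Kcnq1 had positive log2 fold changes in XX, of 0.14 and 0.55, and Cdkn1c, the tetraspanin gene Cd81, Kcnq1ot1, the transporter-like gene Slc22a18 and Phlda2 had negative ones. Without XX wild type replicate 1, Cdkn1c, Cd81 and Slc22a18 turned to positive values of 0.11, 0.01 and 0.02. The Kcnq1 value rested on low counts, with 44.8 and 47.5 in XX Kdm6b-null gonads, against 45.6 and 21.2 in XX wild type gonads, which overlapped. Leaving out XX wild type replicate 1 gave 1.08, and leaving out replicate 2, the library with 21.2, gave 0.02.

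In the Snrpn-Ube3a cluster, none of the 6 genes had an unadjusted limma p under 0.05 in XX. The paternally expressed splicing protein gene Snrpn differed by 0.19 on the log2 scale, the MAGE family genes Ndn and Magel2 by 0.14 and 0.11, the makorin gene Mkrn3 by 0.004, Peg12 by 0.20 and the maternally expressed ubiquitin ligase gene Ube3a by -0.11. Nnat and the amino acid transporter gene Slc38a4 differed by -0.003 and 0.02. Without XX wild type replicate 1, Peg12 and Magel2 had -0.14 and -0.21.

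**Figure D3:**
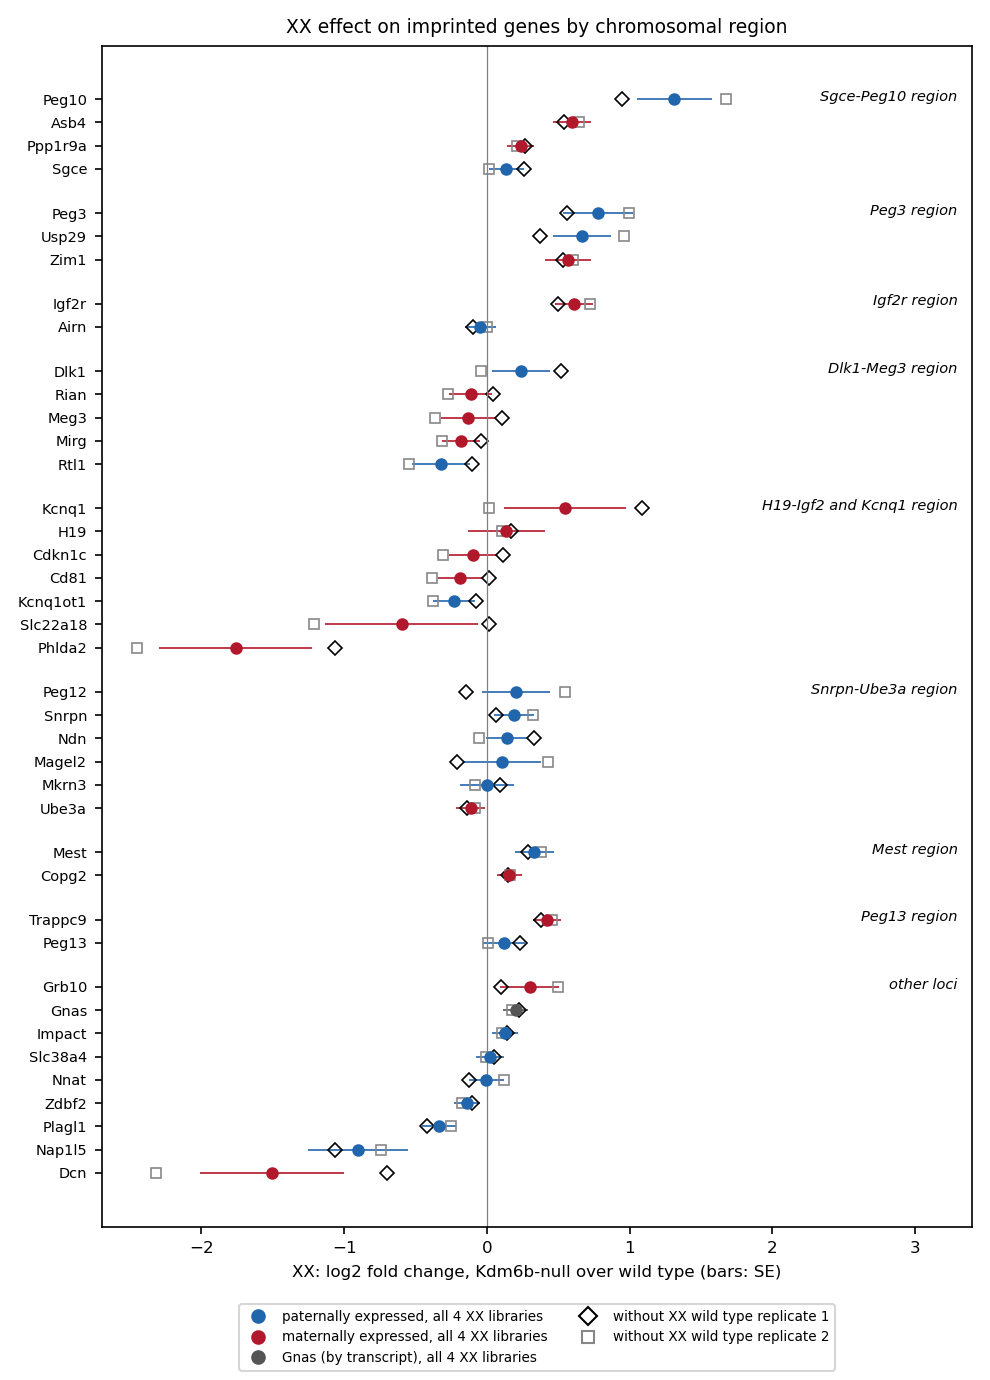
Log2 fold change of each imprinted gene in XX gonads, Kdm6b-null over wild type, by chromosomal region (filled points with SE bars, n = 2 each), with the value without XX wild type replicate 1 (diamonds) or replicate 2 (squares). Peg10 has 1.31, 0.95 and 1.68, on 1 side of 0 in all 3 versions, whereas Dlk1 has 0.24, 0.52 and -0.04.

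Leaving out 1 wild type library changed the XX calls in limma. Without XX wild type replicate 1, 5 of the 40 genes passed, against 3.69% (621) of 16824 genes. Igf2r, Dlk1 and Peg10 were higher and Plagl1 and Dcn were lower. Without XX wild type replicate 2, 15 of the 40 passed, against 20.9% (3550) of 16953 genes. Both fits set 2 Kdm6b-null libraries against a lone wild type one, whose spread is assumed to equal theirs.

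Other markers moved with the XX groups. All 10 endothelial markers had positive XX log2 fold changes, with a median of 0.45, and their summed level was 17981 and 18167 normalized counts in XX Kdm6b-null gonads, against 12051 and 13348 in XX wild type gonads. Of 11 erythroid markers 9 had negative ones, with sums of 116320.4 and 122546 in XX Kdm6b-null gonads, against 188473 and 248158 in XX wild type gonads. All 10 liver and yolk sac markers had negative ones, with sums of 120.6 and 123.2 in XX Kdm6b-null gonads, against 15298 and 446.1 in XX wild type gonads. All 8 gonad somatic markers had positive ones, with sums of 13275 and 13465 in XX Kdm6b-null gonads, against 10465 and 10706 in XX wild type gonads. The medians of these 4 lists without XX wild type replicate 1 were 0.41, -1.03, -2.68 and 0.40. Adrenal cortex markers were negative for 7 of 9, with sums of 1114 and 1185 in XX Kdm6b-null gonads, against 3015 and 711.1 in XX wild type gonads, and their median of -1.24 turned to 0.40 without that library. Germ cell markers were negative for 9 of 12, and their median of -0.29 turned to 0.43. Markers of mesonephros and duct were positive for 7 of 8, with a median of 0.45, which was 0.67 without XX wild type replicate 1. Those of neural crest and neurons were negative for 10 of 11, and their median of -0.30 shrank to -0.02 without that library. Those of macrophages were negative for 9 of 11, and their median of -0.20 turned to 0.06 without it. No marker of these lists was at 0 in every library, and the part of these cells in the differences of the imprinted genes was not tested.

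The XY and XX effects were compared directly as the XY log2 fold change minus the XX one. No gene of the 40 passed limma's test of this difference, nor did any of 17282 genes (0%), and 3 of the 40 (7.5%) had an unadjusted p under 0.05, against 8.35% (1443) of all genes. These were Peg10 at -1.20 (SE 0.35, limma adjusted p = 0.575), Peg3 at -0.77 (SE 0.31, adjusted p = 0.593) and Igf2r at -0.58 (SE 0.21, adjusted p = 0.581). For these 3 genes the XX log2 fold change exceeded the XY one, but the difference did not pass after adjustment. The same difference was negative for 10 of 10 endothelial markers, with a median of -0.73, and for 7 of 8 gonad somatic markers, with a median of -0.88. It was positive for 11 of 11 erythroid markers, with a median of 0.75, and for 11 of 11 macrophage markers, with a median of 0.45. Their part in the differences of the imprinted genes was not tested.

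Over both sexes, with sex as a term, 2 genes of 17282 passed limma's test (0.0116%), Kdm6b and Kdm6bos, and none was an imprinted gene of the set. At an unadjusted p under 0.05 there were 4 of the 40 (10%), against 12.1% of all genes. Trappc9 had the smallest limma adjusted p of the 40, 0.331, with a log2 fold change of 0.29 (SE 0.08) and Kdm6b-null values above the wild type ones in each sex. The others were Peg10 at 0.71, Usp29 at 0.40 and Dcn at -0.92.

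**Figure D4:**
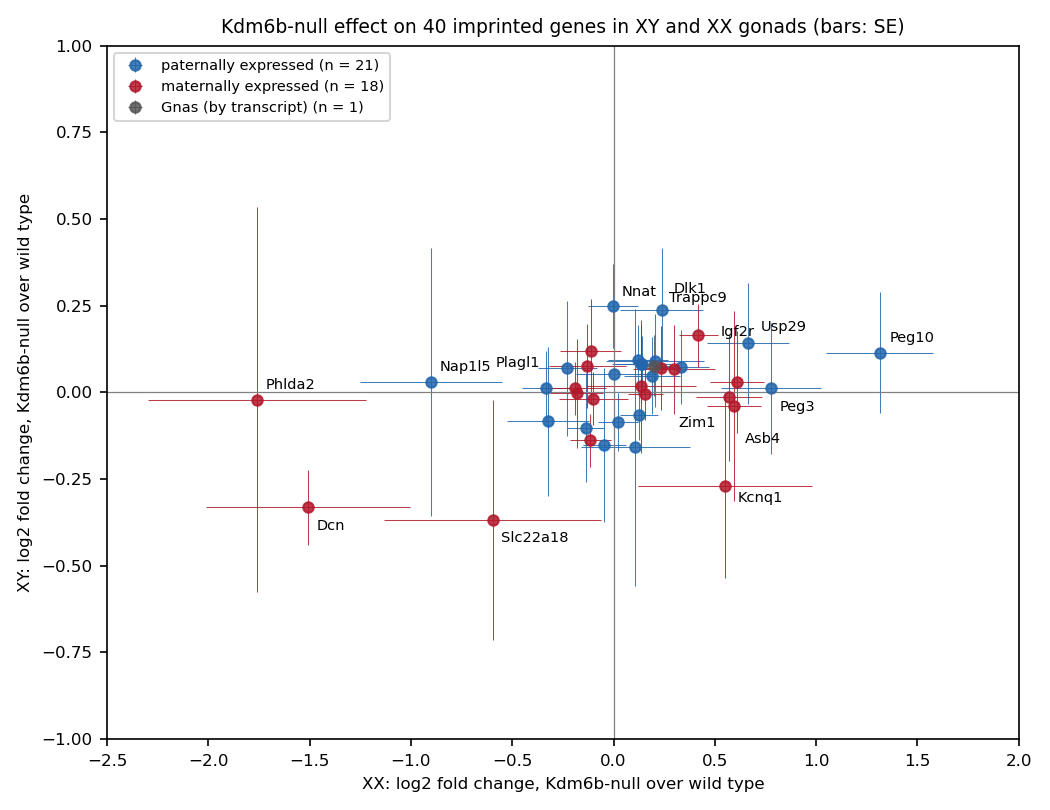
Log2 fold change of the 40 imprinted genes, Kdm6b-null over wild type, in XX gonads (x axis) and in XY gonads (y axis, drawn on a wider scale), with SE bars (n = 2 per group); blue points are paternally expressed, red ones maternally expressed and the grey one Gnas. XY values lie between -0.37 and 0.25, and XX values between -1.76 and 1.31, with Peg10 at the right and Phlda2 and Dcn at the left.

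Paternally and maternally expressed genes were set side by side without a test. The classes come from the list, and some genes are known to be imprinted in certain tissues only. On the maternal side these are Trappc9 (brain), Ube3a (neurons), Cd81 and Dcn (placenta), Kcnq1 (early embryo), Ppp1r9a and Copg2. On the paternal side they are Peg13 (brain) and Slc38a4 (placenta and some embryonic tissues). Whether these genes were imprinted in the gonads used here was not tested. In XY, 15 of the 21 paternally expressed genes had a positive log2 fold change, with a median of 0.05, and 8 of the 18 maternally expressed genes did, with a median of -0.003. With 1 XY library left out the paternal median ran from -0.020 to 0.117 and the maternal one from -0.129 to 0.134. The paternal median was the lower of the 2 without XY wild type replicate 2 (0.045 against 0.134) and without XY Kdm6b-null replicate 1 (-0.017 against 0.003). In XX the counts were 14 of 21 with a median of 0.12, and 9 of 18 with a median of 0.02, against 0.001 for all genes. Without XX wild type replicate 1 they were 12 of 21 with a median of 0.06, and 14 of 18 with a median of 0.11, so the order of the classes turned round, as it also did with a filter at a mean of 50 (0.12 and 0.14). Of the 5 genes called in XX by the authors' deposited table, Peg10 and Peg3 are paternally expressed and Igf2r, Asb4 and Zim1 maternally expressed. Of 8 clusters with kept genes of both classes, 4 had all genes on the positive side in XX, those of Peg3, Sgce-Peg10, Mest and Peg13. In 2 the classes lay on opposite sides, with Igf2r positive and Airn negative, and with the paternally expressed genes of the Snrpn-Ube3a cluster positive and Ube3a negative. Only signs were used here, and some values lay near 0. Airn had -0.05 (SE 0.11), and 0.004 without XX wild type replicate 2. Mkrn3 had 0.004 (SE 0.19), and -0.08 without that replicate. In the Dlk1-Meg3 cluster and the H19 and Kcnq1 region, genes of 1 class lay on both sides. With XX wild type replicate 1 left out the counts were 4 on the same side, 1 opposite and 3 mixed, and in XY they were 1, 3 and 4. The opposite clusters in XY rested on values near 0. These were -0.004 (SE 0.075) for Copg2, -0.015 (SE 0.182) for Zim1 and 0.030 (SE 0.147) for Igf2r.

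The proteins that set, keep or erase imprints were taken as a list of 21 genes, of which 20 were kept. None passed limma's test in either sex. In XY 11 were positive and 9 negative, with a median log2 fold change of 0.01. In XX 15 were positive and 5 negative, with a median of 0.20, which was 0.001 without XX wild type replicate 1. Trim28, the corepressor that works with ZFP57 at imprints, had 16577 and 17716 normalized counts in XX Kdm6b-null gonads, against 10077 and 13564 in XX wild type gonads, a log2 fold change of 0.55 (SE 0.18, limma adjusted p = 0.316). Tet3, a methylcytosine oxidase, and Dnmt3a, a DNA methyltransferase, differed by 0.43 and 0.28 in XX. With XX wild type replicate 1 left out, the lowest library for each of them, the values were 0.34 for Trim28, 0.22 for Tet3 and 0.13 for Dnmt3a.

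A further list of 28 imprinted genes outside the set had 26 kept, and none passed limma's test. Its median log2 fold change was -0.05 in XY and 0.004 in XX. Jade1, which encodes a scaffold of a histone acetyltransferase complex, had 628 and 590 normalized counts in XY Kdm6b-null gonads, against 706 and 732 in XY wild type gonads. In XX it had 531 and 556 in Kdm6b-null gonads, against 626 and 646 in wild type gonads. Its groups did not overlap in either sex, and over both sexes its log2 fold change was -0.23 (SE 0.06, limma adjusted p = 0.331). Gab1, a signalling adaptor gene, differed by 0.15 over both sexes, and Sfmbt2, a Polycomb-related gene, by -0.32.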

How the data were processed

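Polyadenylated RNA of pooled gonads was sequenced with 100-base paired reads, per the labels' protocols. The submitters' processing notes list the build GRCm38 (mm10) and the tools DESeq2 2.11.40.8, featureCounts 2.0.8, STAR 2.7.11 and cutadapt 4.9. Not given in the sources used here are the annotation release, the strand setting and the treatment of multimapping reads. The unit of the deposited signal is normalized counts, which the authors made by dividing counts by 1 size factor per library, with XX and XY in separate tables. For each sex the authors' deposited comparison by DESeq2 holds a log2 fold change, a p-value before and after adjustment, and a Wald score that was not used. That of XX lacks a header, so its columns were matched to the XY layout and to the means. In every library 100% of nonzero values were whole multiples of 1 step (tolerance 1e-06), read as 1 count to give the depth of 19107103 to 19828638 counts.

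Tests on log2(normalized count + 1) used limma 3.58.1 (R 4.3.3), a trended variance and Benjamini-Hochberg adjustment at 0.05 over all genes with a mean of at least 10. The scale understates changes of genes with few counts. Each sex was fitted alone (16821 genes in XY and 17028 in XX). The difference of effects and the effect over both sexes were fitted on 8 libraries and 17282 genes. Residual degrees of freedom were 2, 2, 4 and 5. The script was tested on simulated data. The fits were repeated with other pseudocounts, filters, scales, variance settings and sample sets. The design foresaw a model of counts on recovered reads, which was not run because a check of the values did not accept them as recovered reads.

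The members, the lists and the tests were chosen with earlier results of these data known. Every gene of the set is named, and of the regulators and the other imprinted genes those 3 with the smallest p over both sexes. Exon lengths and positions came from GENCODE M21 and the deposited tables, where 35 of 42 spans were equal and that of Kcnq1ot1 was not. Another gene on the opposite strand overlapped 23 of the 42 genes. Replicate numbers in the titles were not taken as pairs.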

Additional observations from a re-analysis of the deposited data

How the results depend on the processing

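Counts of genes called were small and moved with the setting. In XY limma called 0 genes, 1 without the variance trend, 23 with a replicate block, and 0 to 2 when 1 library was left out. In XX it called 0 genes, 2 with the replicate block, 10 with all 8 libraries in 1 fit, and 0 to 3550 when 1 library was left out, with 621 without wild type replicate 1 and 3550 without wild type replicate 2. For the difference between the sexes it called 0 genes, and 0 to 44 when 1 library was left out, the 44 without XX wild type replicate 2, where Dcn passed. Over both sexes it called 2 genes, 1 with a filter at a mean of 50, 0 with the replicate block, and 0 to 3 when 1 library was left out. The deviations of same-numbered libraries had a correlation over genes of 0.245 in XY and -0.062 in XX. With only 2 same-numbered pairs in a sex, these values can neither show nor exclude pairing. The replicate block was run as a setting only.

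With 1 library left out, the median log2 fold change in XY ran from -0.045 to 0.066 over all 40 genes, from -0.020 to 0.117 for the paternally and from -0.129 to 0.134 for the maternally expressed genes, each changing sign. For the maternally expressed genes in XX it was -0.046 with library totals as the scale. In XX the median over all 40 genes was 0.058 with library totals as the scale and 0.010 to 0.116 with 1 library left out. For the paternally expressed genes these were 0.055 and 0.007 to 0.147, and for the maternally expressed genes -0.035 to 0.108 with 1 library left out and 0.136 with a filter at a mean of 50, which leaves out genes of low counts. Single genes changed sign in 47 of 476 repeats in XY and in 21 of 476 in XX. By gene, 29 of the 40 changed sign at least 1 time in XY and 14 of the 40 in XX. The largest log2 fold change among them in the main fit was 0.159 in size in XY and 0.597 in XX. The cause was not tested. The count model on recovered reads was not run. With 2 libraries a group, a gene at the limit of 3 counts cannot be followed.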
